A study of Mus musculus with 10 samples.

Results

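The imprinted growth genes described here are 10 genes that are expressed mainly from the allele of a single parent and that promote or restrain fetal growth: H19, Dlk1, Meg3, Peg3, Peg10, Plagl1, Cdkn1c, Grb10, Mest and Ndn. They were taken by symbol from the table of counts, in which all 10 were found among 24470 gene entries. The study asked what follows when the breakdown of glycogen is blocked in the developing testis. Male gonads of C57BL/6 mouse embryos at E12.5 were cultured with the mesonephros attached for 48 h, in medium with 75 µM of the glycogen phosphorylase inhibitor CP 316819 (GPI) or with its vehicle, DMSO. From each of 5 embryos 1 gonad received GPI and the other vehicle, which gave 5 vehicle and 5 GPI libraries in pairs. The mesonephros was removed before RNA was extracted, so each library holds RNA of a whole gonad with all its cell types.

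In genomic imprinting, methylation marks set in the germ line of a parent leave a gene active on the maternal or on the paternal chromosome only, and neighboring imprinted genes share control regions. Many paternally expressed genes, such as Igf2, Dlk1, Peg3 and Mest, promote fetal growth, whereas the maternally expressed Cdkn1c, Grb10 and H19 restrain it, and Plagl1 encodes a zinc finger transcription factor that regulates other imprinted genes. Such genes are abundant in fetal mesenchyme and decline after birth, and germ cells erase the marks that somatic cells keep. The libraries do not separate the alleles, so all values are sums over both chromosomes and the loss of an imprint could not be seen.

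Depth ran from 10203679 to 15635322 counts per library. Levels are given as normalized counts, which are counts divided by the TMM-scaled library size and multiplied by the mean of that size over the 10 libraries. The 10 genes took between 0.900% and 1.03% of the counts of a vehicle library and between 0.707% and 1.002% of those of a GPI library. The GPI library of embryo 1 stood apart from the other GPI libraries before any gene was considered. Its counts differed from theirs with a chi-square per degree of freedom of 21.7 to 27.8, against 7.48 to 11 among the other 4. The vehicle library of embryo 2 differed from the other vehicle libraries with 13.01 to 21.2, against 6.42 to 13.7 among those 4. Values without embryo 1 are given for the imprinted genes whose call it changed.

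Per kilobase of the longest transcript, H19 had the highest level of the 10 genes in vehicle gonads, with 15974 ± 1501 normalized counts per kilobase (SD, n = 5), rank 15 among 13304 tested genes with a known length. Plagl1 (4025 ± 459) and Mest (3195 ± 562) followed on the same scale, with vehicle ranges that overlapped. Grb10 (2357 ± 57.2) and Peg3 (2345 ± 256) could not be ordered beyond their spread, and Peg10 (1120 ± 118) and Meg3 (690.1 ± 103) came next per kilobase, each apart from its neighbors. Cdkn1c (204 ± 57.3), Dlk1 (183 ± 15.99) and Ndn (154 ± 14.2) had the lowest levels per kilobase, with overlap between neighbors. The transcript length used for Ndn, 3694 bases, exceeds its counted entry (chr7:62348277-62349928). Its level per kilobase may therefore be too low, and its place among these genes is not settled. In GPI gonads the order per kilobase differed at 2 places. Mest, at 1550.3 per kilobase, stood below Grb10 (2327) and Peg3 (2245) in every GPI library, and the mean of Peg10 (677) lay below that of Meg3 (812), with ranges that overlapped.

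GPI was compared with vehicle by edgeR's quasi-likelihood test on all 13941 genes that passed a filter on low counts, paired by embryo, and a gene was called at a Benjamini-Hochberg adjusted p under 0.05. All 10 genes passed the filter. Of them 5 were called (3 lower and 2 higher in GPI gonads), beside a background of 22.9% of all tested genes called in either direction, 11.9% lower and 11.1% higher. The median log2 fold change of the 10 genes was -0.04, against 0.02 over all tested genes. Mest, Peg10 and H19 were the genes called lower, and Cdkn1c and Meg3 those called higher. Of the 6 paternally expressed genes 2 were called, both lower, and of the 4 maternally expressed genes 3 were called, of which 2 were higher. Without embryo 3 or embryo 4 the test called 969 or 1024 of all genes higher, against 1544 with all embryos, and without embryo 1, 3 or 4 it called 1 of the 10 genes higher. Without embryo 2, 3 or 4 it called 2 of them lower. These p-values weigh a change against its spread over 5 embryos and against the error of counting.

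**Figure D1:**
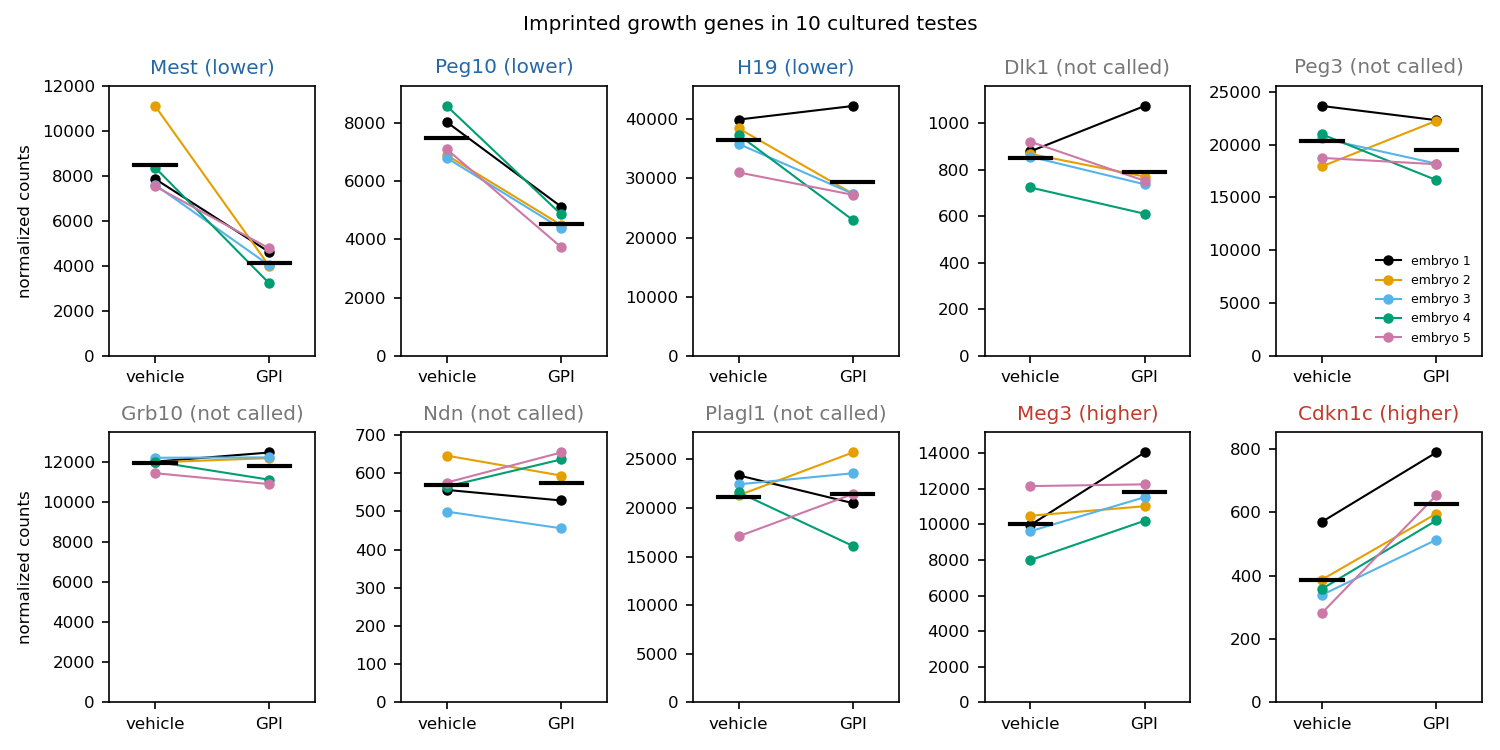
Normalized counts of the 10 imprinted growth genes in each library, with a panel per gene and its own vertical axis from 0; points are gonads, lines join the vehicle and GPI gonads of an embryo, and black bars are group means (n = 5). Mest and Peg10 are lower in every GPI gonad than in any vehicle gonad, whereas the H19 line of embryo 1 slopes up and those of the other 4 embryos slope down.

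Mest encodes a protein of the alpha/beta hydrolase family that is expressed from the paternal allele throughout fetal mesoderm (Entrez 17294, mm10 chr6:30733506-30748466, plus strand). Vehicle gonads of embryos 1 to 5 held 7883, 11128, 7621, 8389 and 7555 normalized counts of Mest. Their GPI partners held 4622, 3993, 4031, 3228 and 4783. All 5 GPI gonads lay below all 5 vehicle gonads, and the vehicle gonad of embryo 2 was well above the other 4. Mest fell by 1.04 on the log2 scale (SE 0.11, 95% interval -1.28 to -0.80), to 0.486 of its vehicle level, with an edgeR quasi-likelihood adjusted p (Benjamini-Hochberg) of 1.24e-05. It was lower in 5 of 5 embryos, by -1.48 in embryo 2 at one end and -0.66 in embryo 5 at the other on the log2 scale.

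RefSeq start sites of Mest lie at more than 1 place, and a window at each of the upstream and downstream sites is shown because Mest had the largest change of the 10 genes and because imprinting marks are set on CG dinucleotides. A further window, shifted by a few bases from the downstream one and also with 17 CG, is not shown. The windows are given from 250 bases before to 50 after the start, in RefSeq's GRCm38.p6 (the assembly of mm10), 5′ to 3′, with every CG dinucleotide in capitals.
Mest, chr6:30733256-30733555, + strand: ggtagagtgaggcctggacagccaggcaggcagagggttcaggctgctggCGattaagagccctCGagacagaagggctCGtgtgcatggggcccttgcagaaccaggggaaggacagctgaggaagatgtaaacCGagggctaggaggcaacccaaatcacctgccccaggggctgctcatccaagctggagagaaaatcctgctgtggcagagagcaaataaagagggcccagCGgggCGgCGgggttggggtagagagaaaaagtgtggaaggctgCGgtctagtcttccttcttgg
Mest, chr6:30737800-30738099, + strand: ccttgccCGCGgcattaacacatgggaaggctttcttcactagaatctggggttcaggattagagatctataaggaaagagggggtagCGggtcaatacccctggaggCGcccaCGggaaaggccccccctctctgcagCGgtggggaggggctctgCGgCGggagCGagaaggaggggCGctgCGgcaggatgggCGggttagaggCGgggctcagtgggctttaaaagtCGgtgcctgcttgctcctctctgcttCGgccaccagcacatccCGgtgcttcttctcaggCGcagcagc
The upstream window holds 8 CG and the downstream window 17, against a median of 7 over 32851 such windows of the mouse annotation. Windows with at least as many CG made up 48.6% and 31.4% of all windows. Counts were made per gene, so the change in Mest cannot be assigned to either start.

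An intron of Mest also holds the precursor of miR-335, and Copg2 overlaps the end of Mest on the opposite strand by 913 bases. Copg2, which encodes a coat protein subunit of transport vesicles, had 1019 ± 90.8 normalized counts in vehicle and 710.2 ± 87.8 in GPI gonads (SD, n = 5), without overlap. It fell by 0.52 on the log2 scale (SE 0.10, lower in 5 of 5 embryos, edgeR adjusted p = 0.00159). Counting ignored the strand, so reads of the shared stretch cannot be assigned to Mest or Copg2. The entry of the miR-335 precursor held only 5 to 33 counts per library and did not pass the test (log2 fold change -0.01, SE 0.45).

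Peg10, a paternally expressed gene derived from a retrotransposon and needed for the placenta (Entrez 170676, chr6:4747306-4760517, plus strand), showed a similar separation. Its vehicle levels in embryos 1 to 5 were 8018, 6883, 6789, 8570.3 and 7088 normalized counts. The GPI gonads had 5119, 4491, 4373, 4855 and 3732. The highest GPI gonad, that of embryo 1, lay below the lowest vehicle gonad, that of embryo 3, so the groups did not overlap. Peg10 fell by 0.73 on the log2 scale (SE 0.07, 95% interval -0.88 to -0.58), lower in 5 of 5 embryos, with an edgeR quasi-likelihood adjusted p (Benjamini-Hochberg) of 4.66e-06.

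Peg10 starts 102 bases from the start of Sgce, which is transcribed the other way, is also paternally expressed and encodes a sarcoglycan. Sgce had 408 ± 33.8 normalized counts in vehicle and 391 ± 35.3 in GPI gonads (SD, n = 5), a log2 fold change of -0.06 (SE 0.10) that did not pass the test. Within a library the ratio of Peg10 to Sgce counts was 21.8, 18.1, 16.3, 20.3 and 15.7 in vehicle gonads of embryos 1 to 5, and 14.4, 10.3, 10.4, 12.9 and 10.2 in their GPI partners. The ratio, which does not depend on library scaling, was lower with GPI in 5 of 5 embryos, by -0.67 ± 0.08 on the log2 scale (SD, n = 5). An exact two-sided sign-flip permutation test gave p = 0.0625, the smallest that 5 pairs allow, and 0.075 after Benjamini-Hochberg adjustment over the 6 ratios computed. Further along this domain, Asb4, an ankyrin repeat gene, fell by 0.99 on the log2 scale (SE 0.09), and Ppp1r9a, which encodes neurabin, was higher by 0.28 (SE 0.07), each in 5 of 5 embryos. The call of Ppp1r9a was lost without embryo 3 (0.25, edgeR adjusted p = 0.0757) or embryo 4 (0.25, 0.0611).

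RNA was taken from whole gonads, in which fewer cells of a type and less RNA per cell cannot be told apart from the counts alone, and marker genes of several cell types moved with these changes. All 10 endothelial markers were called lower (9 of the 9 that had at least 10 counts in every library). Their summed level was 8006, 8411, 7706, 8969 and 8045 normalized counts in vehicle gonads of embryos 1 to 5 and 942, 1117, 765, 609 and 827 with GPI, and Cdh5 was the most abundant (2827 and 232 on average). Of 9 germ cell markers tested 7 were called lower (2 of the 3 with such counts), with sums of 2210.2, 3554, 2651, 3424 and 2064 in vehicle and 1041, 893, 832, 1013 and 1031 in GPI gonads. Kit, the most abundant of them, was not called (857 and 771), and Dazl averaged 580.2 and 25.1. Of 12 genes listed as Sertoli cell markers 9 were called higher (sums of 5692, 9070.1, 6948, 7910 and 8601 in vehicle and 7640, 11556, 11918, 14192 and 11915 in GPI gonads). The most abundant of the list was Gata4 (2350.2 and 3357), and whether it is restricted to Sertoli cells was not tested. Of 8 fetal Leydig cell markers tested 7 were called higher, with sums of 1994, 3543, 4882, 2681 and 6271 in vehicle and 11271, 11635, 17648, 20159 and 14736 in GPI gonads, and Hsd3b1 was the most abundant (1718 and 5275).

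Among the other cell type lists, 6 of 7 macrophage markers were called lower (sums of 685 to 981 in vehicle and 218 to 449 in GPI gonads, most abundant Lyz2), 6 of 7 erythroid markers (1827 to 4284 and 913 to 2372, Hbb-y), and 3 of 6 tested markers of smooth muscle and pericytes (2980 to 3909 and 1814 to 2221). In the last list the genes called were the pericyte markers Rgs5, Cspg4 and Mcam, and the most abundant, Acta2, was not called (1131 and 1048). A marker that passes the filter through vehicle gonads alone tends to be one that is lower with GPI. Of those with at least 10 counts in every library 4 of 5 macrophage and 4 of 5 erythroid markers were called lower. Interstitial progenitor markers, which mark the fetal mesenchyme, summed to 40491 to 50748 in vehicle and 35663 to 46168 in GPI gonads. Of these 13 tested genes 4 were called lower and 2 higher, and the most abundant, Col3a1, was not called. Without embryo 2, 3 or 4 the numbers called lower were 2, 1 and 1. Of 3 tested genes listed as mesonephric markers 1 was called, Emx2, which was lower (sums of 1056 to 1828 and 725 to 1116). Emx2 was also the most abundant of the list (981 and 597 on average), and whether it is restricted to mesonephric cells was not tested. Of 5 tested coelomic epithelium markers edgeR, DESeq2 and limma-voom each called 0, with 1 at an unadjusted p under 0.05 in each (sums of 1379 to 1866 and 1739 to 1886, most abundant Aldh1a2), and without embryo 1 edgeR called 1 of them higher. No marker was at 0 in all libraries. The part of these lists in the changes of Mest, Peg10, H19, Meg3 and Cdkn1c was not tested.

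H19 is a maternally expressed long noncoding RNA that restrains growth (Entrez 14955, chr7:142575530-142578146, minus strand), and it shares its enhancers with Igf2, a paternally expressed fetal growth factor that lies 72622 bases away. Vehicle gonads of embryos 1 to 5 had 39936, 38455, 35831, 37365 and 31000.4 normalized counts of H19. With GPI the same embryos had 42229, 27393, 27397, 22966 and 27225. The GPI gonad of embryo 1 had the highest H19 level of all 10 libraries, whereas the other 4 GPI gonads lay below all vehicle gonads, so the groups overlapped through this single gonad. H19 fell by 0.34 on the log2 scale (SE 0.09, 95% interval -0.54 to -0.14), lower in 4 of 5 embryos, with an edgeR quasi-likelihood adjusted p (Benjamini-Hochberg) of 0.0184. Without embryo 1 the log2 fold change was -0.46. The call was lost without embryo 2 (-0.30, edgeR adjusted p = 0.0669), embryo 3 (-0.34, 0.0618) or embryo 4 (-0.25, 0.102), and also without the pairing by embryo (-0.31, 0.0963).

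Igf2 moved in the same direction as H19. It had 48063, 46191, 41636, 40095 and 33118 normalized counts in vehicle gonads of embryos 1 to 5 and 34599, 35227, 29788, 21964 and 26790.3 in their GPI partners. Each embryo was lower with GPI, while the vehicle gonad of embryo 5 lay within the range of the GPI gonads. Igf2 fell by 0.50 on the log2 scale (SE 0.08), to 0.705 of its vehicle level, lower in 5 of 5 embryos (edgeR adjusted p = 0.000348). Per kilobase Igf2 stood at 8857 in vehicle gonads, below H19. The ratio of H19 to Igf2 counts within a library was 0.831, 0.833, 0.861, 0.932 and 0.936 in vehicle and 1.22, 0.778, 0.920, 1.05 and 1.02 in GPI gonads, a log2 difference of 0.17 ± 0.24 (SD, n = 5, higher in 4 of 5 embryos, exact sign-flip permutation p = 0.188, the same after adjustment). Without embryo 1 the log2 difference was 0.071. Embryo 1 held the highest and embryo 2 the lowest GPI ratio, and a difference in this ratio was not resolved.

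The Dlk1 and Meg3 domain on chromosome 12 pairs a paternally expressed gene for a transmembrane protein with epidermal growth factor repeats, Dlk1 (Entrez 13386, chr12:109452823-109463336), with a maternally expressed noncoding RNA, Meg3 (Entrez 17263, chr12:109540996-109571729). Both lie on the plus strand, 77660 bases apart. Their promoter windows are shown because both genes belong to a single imprinted domain, with CG dinucleotides in capitals as for Mest.
Dlk1, chr12:109452573-109452872, + strand: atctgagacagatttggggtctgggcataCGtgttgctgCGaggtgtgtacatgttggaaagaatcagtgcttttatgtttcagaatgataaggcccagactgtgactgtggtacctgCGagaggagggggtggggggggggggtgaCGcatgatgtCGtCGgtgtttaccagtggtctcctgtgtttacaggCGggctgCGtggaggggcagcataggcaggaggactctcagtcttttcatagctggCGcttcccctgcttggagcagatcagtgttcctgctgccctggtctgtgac
Meg3, chr12:109540746-109541045, + strand: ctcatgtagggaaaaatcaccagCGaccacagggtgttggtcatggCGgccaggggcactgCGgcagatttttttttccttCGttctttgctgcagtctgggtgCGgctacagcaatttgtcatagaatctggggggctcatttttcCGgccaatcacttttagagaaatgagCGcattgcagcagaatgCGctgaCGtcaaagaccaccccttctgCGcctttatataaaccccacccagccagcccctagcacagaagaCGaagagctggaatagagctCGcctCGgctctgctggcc
The Dlk1 window holds 9 CG and this Meg3 window 13. Another RefSeq start of Meg3 has a window at chr12:109545148-109545447 with 1 CG and no TATAAA. The Meg3 window shown holds TATAAA on its own strand, from base 226, a sequence found in 13.6% of all 32851 windows on either strand, and the Dlk1 window does not.

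Meg3 in vehicle gonads of embryos 1 to 5 was measured at 9959, 10485, 9614, 7991 and 12150.3 normalized counts. In GPI gonads it was measured at 14038, 11020.1, 11527, 10202 and 12249. Each embryo was higher with GPI, by as little as 0.01 in embryo 5 and as much as 0.50 in embryo 1 on the log2 scale. The groups overlapped, and gonads of different embryos differed about as widely with vehicle (SD 1503 normalized counts) as with GPI (SD 1453). The log2 fold change was 0.24 (SE 0.08, 95% interval 0.07 to 0.40), with an edgeR quasi-likelihood adjusted p (Benjamini-Hochberg) of 0.0382 and 5 of 5 embryos higher. This call was lost without embryo 1 (0.16, edgeR adjusted p = 0.178), embryo 3 (0.22, 0.157) or embryo 4 (0.21, 0.144), without the pairing by embryo (0.23, 0.121), and with scaling by total counts alone (0.19, 0.11).

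Dlk1 ranged from 724 to 921 normalized counts in vehicle and from 611 to 1074 in GPI gonads. It was lower with GPI in embryos 2 to 5, by -0.17 to -0.29 on the log2 scale, and higher in embryo 1, by 0.29. The log2 fold change of -0.13 (SE 0.10) did not pass the test (edgeR adjusted p = 0.398), nor did that of -0.25 without embryo 1 (0.0646). The ratio of Dlk1 to Meg3 counts was 0.0883, 0.0829, 0.0891, 0.0907 and 0.0758 in vehicle gonads of embryos 1 to 5 and 0.0766, 0.0700, 0.0641, 0.0600 and 0.0615 in GPI gonads. It was lower with GPI in 5 of 5 embryos, by -0.37 ± 0.17 on the log2 scale (SD, n = 5, exact sign-flip permutation p = 0.0625, adjusted 0.075), with the lowest vehicle ratio just below the highest GPI ratio. Compared as 2 unpaired groups, which leaves out the pairing by embryo, the ratio had an adjusted exact permutation p of 0.0238. That test can reach smaller p-values than 5 pairs allow, so the 2 results cannot be set against each other.

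Other transcripts of the domain were measured beside this pair. Mirg, a maternally expressed noncoding RNA that hosts microRNAs, had 216 ± 44.5 normalized counts in vehicle and 282 ± 53.6 in GPI gonads (SD, n = 5) and was higher by 0.39 on the log2 scale (SE 0.11, 5 of 5 embryos, edgeR adjusted p = 0.0222). The call of Mirg was lost without embryo 2 (0.34, edgeR adjusted p = 0.0507), embryo 3 (0.39, 0.0768), embryo 4 (0.39, 0.070) or embryo 5 (0.38, 0.0668), and without the pairing (0.38, 0.0982). Rian, which lies between Meg3 and Mirg and is transcribed in the same direction, was not called (0.05, SE 0.07). The ratio of Meg3 to Rian was higher in each embryo, by 0.19 ± 0.12 on the log2 scale (SD, n = 5, exact sign-flip permutation p = 0.0625, adjusted 0.075). Rtl1 (0.18, SE 0.21), Dio3 (-0.42, SE 0.56) and Begain (-0.81, SE 0.51) were expressed at low levels and were not called either. Their values depended on single embryos: Rtl1 was -0.086 without embryo 3, Dio3 0.14 without embryo 4 and Begain -0.46 without embryo 2.

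H19, Mest and Meg3 are host genes of microRNAs, whose mature sequences from RefSeq are printed to show what these transcripts carry. They are written 5′ to 3′ with the seed, bases 2 to 8, in capitals.
miR-675-5p, chr7:142577112-142577133, - strand: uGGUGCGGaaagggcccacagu
miR-675-3p, chr7:142577078-142577099, - strand: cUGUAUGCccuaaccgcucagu
miR-335-5p, chr6:30741314-30741336, + strand: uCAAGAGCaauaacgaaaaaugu
miR-335-3p, chr6:30741354-30741375, + strand: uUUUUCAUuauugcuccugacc
miR-770-5p, chr12:109563710-109563731, + strand: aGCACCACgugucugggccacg
miR-770-3p, chr12:109563744-109563765, + strand: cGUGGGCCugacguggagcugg
No seed is shared among these 6. The libraries do not measure mature microRNAs, and the precursor entries within H19 and Meg3 held 0 counts in all libraries, so nothing can be said of their levels.

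Cdkn1c encodes a cyclin-dependent kinase inhibitor that is expressed from the maternal allele and holds back the cell cycle (Entrez 12577, chr7:143458339-143461050, minus strand). In vehicle gonads of embryos 1 to 5 it had 570.3, 388, 339, 359 and 283 normalized counts. In their GPI partners it had 789, 596, 513, 574 and 654. Embryo 1 was the highest in both groups, and its vehicle gonad alone reached the range of the GPI gonads. Cdkn1c was higher by 0.71 on the log2 scale (SE 0.11, 95% interval 0.47 to 0.96), or 1.64-fold, in 5 of 5 embryos, with an edgeR quasi-likelihood adjusted p (Benjamini-Hochberg) of 0.000376. The increase was 0.47 to 0.68 in embryos 1 to 4 and 1.20 in embryo 5.

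Kcnq1ot1, the paternally expressed noncoding RNA whose transcription silences Cdkn1c on the paternal chromosome, had 18370 ± 1916 normalized counts in vehicle and 18383 ± 1254 in GPI gonads (SD, n = 5). Its log2 fold change was 0.00 (SE 0.07). The ratio of Cdkn1c to Kcnq1ot1 was 0.0269, 0.0204, 0.0186, 0.0213 and 0.0173 in vehicle and 0.0448, 0.0302, 0.0270, 0.0346 and 0.0347 in GPI gonads, higher in 5 of 5 embryos by 0.71 ± 0.19 on the log2 scale (SD, n = 5, exact sign-flip permutation p = 0.0625, adjusted 0.075). The GPI gonad of embryo 3 and the vehicle gonad of embryo 1 nearly met. Kcnq1, a potassium channel gene within which Kcnq1ot1 lies on the other strand, had 14 to 27 counts in vehicle and 0 to 4 in GPI libraries and was called lower (log2 fold change -3.60, SE 0.59, 5 of 5 embryos), from counts that ignore the strand. It passed the filter through its vehicle counts alone and is not among the genes with at least 10 counts in every library. Osbpl5 was not called, and Phlda2, Slc22a18 and Ascl2 had too few counts to be tested.

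**Figure D2:**
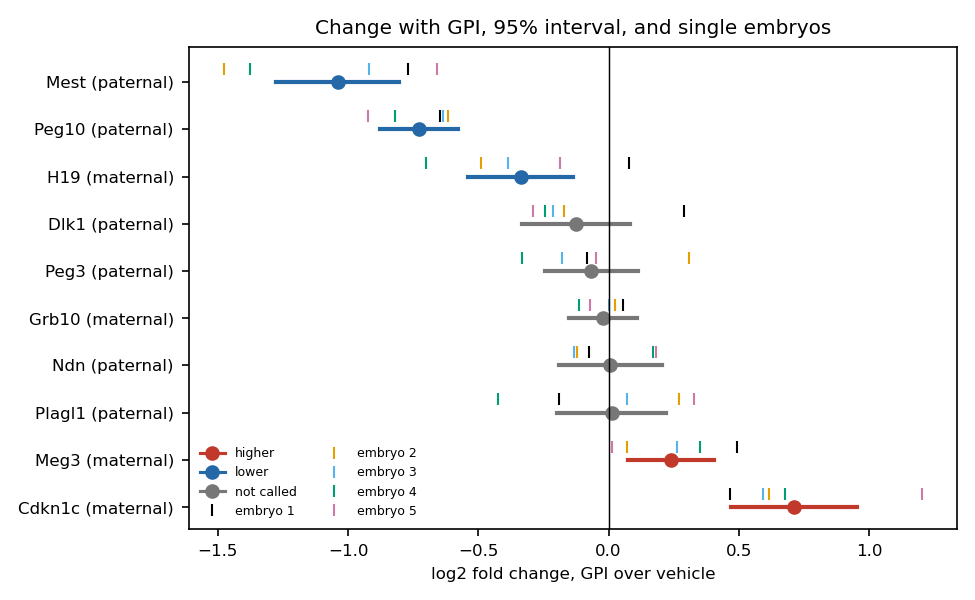
Log2 fold change of GPI over vehicle for each gene, with the parental allele it is expressed from in brackets; circles are estimates of the paired test, horizontal lines its 95% intervals, colors the call, and upright ticks the change in each embryo. Mest, at -1.04, and Cdkn1c, at 0.71, lie at the ends, and the black tick of embryo 1 lies apart from the other 4 for Dlk1 and is the only one above 0 for H19.

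The other 4 genes were not called and overlapped between groups. Peg3, a paternally expressed zinc finger gene, ranged from 17946 to 23661 normalized counts in vehicle and from 16649 to 22319.5 in GPI gonads (log2 fold change -0.07, SE 0.08). Plagl1 ranged from 17093 to 23369.6 and from 16104 to 25721 (0.01, SE 0.10), and its changes in single embryos ran from -0.43 in embryo 4 to 0.33 in embryo 5. Grb10, a maternally expressed adaptor that dampens insulin and IGF receptor signaling, had the least spread. It ranged from 11437 to 12207 in vehicle and from 10891 to 12469 in GPI gonads, and its log2 fold change of -0.02 had a 95% interval of -0.15 to 0.11. Ndn, which encodes the growth suppressor necdin, ranged from 499 to 646 and from 455 to 654 (0.01, SE 0.09). The 95% intervals of the 4 genes allow changes of up to -0.24 (Peg3) and 0.22 (Plagl1) on the log2 scale.

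No tested gene was called in the domains of Peg3 (3 tested), Grb10 (3) and Plagl1 (1). In that of Ndn, with Ndn itself, 2 of 6 tested genes were called, beside 22.9% of all tested genes. Usp29, which starts 164 bases from Peg3, had a log2 fold change of 0.32 (SE 0.18), or 0.094 without embryo 1, and Zim1 one of -0.13 (SE 0.10). Ddc and Cobl beside Grb10 were not called, and the RNA Hymai, which lies within Plagl1 on the same strand and was chosen after its values were seen, had 0.10 (SE 0.12). Around Ndn, Magel2 had 14 to 38 counts in vehicle and 26 to 70 in GPI libraries. Its log2 fold change of 0.90 (SE 0.31, higher in 5 of 5 embryos) missed the threshold with an edgeR adjusted p of 0.054. It passed without the pairing (0.90, edgeR adjusted p = 0.032), among genes with at least 10 counts in every library (0.88, 0.0313) and, just under 0.05, without embryo 1 (1.01). Unlike edgeR, limma-voom called it with all embryos (0.88, limma-voom adjusted p = 0.0471), whereas DESeq2 did not (0.89, DESeq2 adjusted p = 0.066). Nor did edgeR call Magel2 without embryo 2 (0.79, edgeR adjusted p = 0.138), 3 (0.95, 0.107), 4 (0.74, 0.187) or 5 (0.96, 0.0941), or with total counts alone (0.84, 0.0708). The ratio of Ndn to Magel2 was 23.4, 27.8, 20.8, 39.1 and 19.6 in vehicle and 17.8, 10.4, 12.45, 14.9 and 14.1 in GPI gonads, without overlap. It was lower in 5 of 5 embryos by -0.88 ± 0.49 on the log2 scale (SD, n = 5, exact sign-flip permutation p = 0.0625, adjusted 0.075). Peg12 (-0.58, SE 0.18) and Atp10a (-0.83, SE 0.28) at the same domain were called lower, in 5 and 4 of 5 embryos. The call of Peg12 was lost without embryo 2 (-0.41, edgeR adjusted p = 0.108) or 3 (-0.56, 0.0934). That of Atp10a was lost without embryo 1 (-0.59, edgeR adjusted p = 0.146), 3 (-0.80, 0.138), 4 (-0.76, 0.142) or 5 (-0.97, 0.0532), and in limma-voom (-0.77, limma-voom adjusted p = 0.0587). Mkrn3 (-0.054, SE 0.35) and Ube3a (0.12, SE 0.06, higher in 5 of 5 embryos) were not called. Snrpn had 0 counts in all libraries and Snurf, which it overlaps by 22655 bases on the same strand, at most 1. Whether reads shared by these 2 entries were left out of the counts was not tested.

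**Figure D3:**
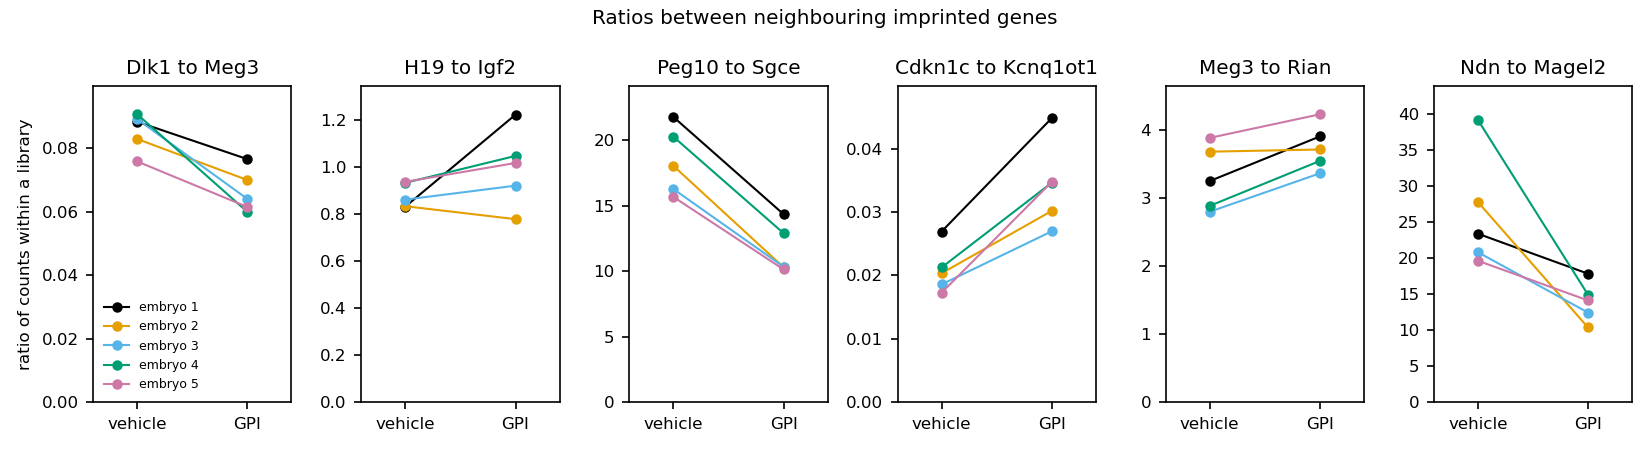
Ratio of the counts of 2 neighboring imprinted genes within each library, for 6 pairs, with vertical axes from 0 and lines joining the gonads of an embryo. The ratio is lower with GPI in all 5 embryos for Dlk1 to Meg3, Peg10 to Sgce and Ndn to Magel2, higher in all 5 for Cdkn1c to Kcnq1ot1 and Meg3 to Rian, and of either direction for H19 to Igf2.

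Beyond the 10 genes, 46 other imprinted genes were listed, of which 45 were in the table (Nespas was not found by symbol) and 35 could be tested. Of these, 10 were called lower and 2 higher, beside 11.9% and 11.1% of all tested genes, with a median log2 fold change of -0.06 against 0.02. Of the 32 with at least 10 counts in every library, which leaves out Kcnq1, 9 were called lower and 3 higher. Within the domains that hold one of the 10 genes, 22 neighbors were tested, and Igf2, Asb4, Kcnq1, Copg2, Peg12 and Atp10a were called lower and Mirg and Ppp1r9a higher. Elsewhere, 4 of 13 tested genes were called, each lower: Airn (-0.82, SE 0.09), Peg13 (-0.57, SE 0.19), Inpp5f (-0.43, SE 0.11) and Dcn (-0.37, SE 0.12). Dcn lost its call without embryo 1 (-0.21, edgeR adjusted p = 0.110), 2 (-0.38, 0.0989), 3 (-0.41, 0.085) or 4 (-0.38, 0.104), without the pairing (-0.37, 0.106) and in DESeq2 (-0.38, DESeq2 adjusted p = 0.166). Peg13 lost its call without embryo 1 (-0.58, edgeR adjusted p = 0.0653), 2 (-0.32, 0.131), 3 (-0.68, 0.0514) or 4 (-0.65, 0.0625). Airn overlaps Igf2r by 28396 bases on the other strand, and Igf2r was not called (0.04, SE 0.09). Without embryo 3 the test called 6 of the other imprinted genes lower and 0 higher. It called 0 higher without embryo 4 and 1 without embryo 5. Several of these genes, among them Ppp1r9a, Copg2, Atp10a, Ddc, Cobl and Osbpl5, are imprinted only in certain tissues, and whether they are imprinted in the gonad was not tested.

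**Figure D4:**
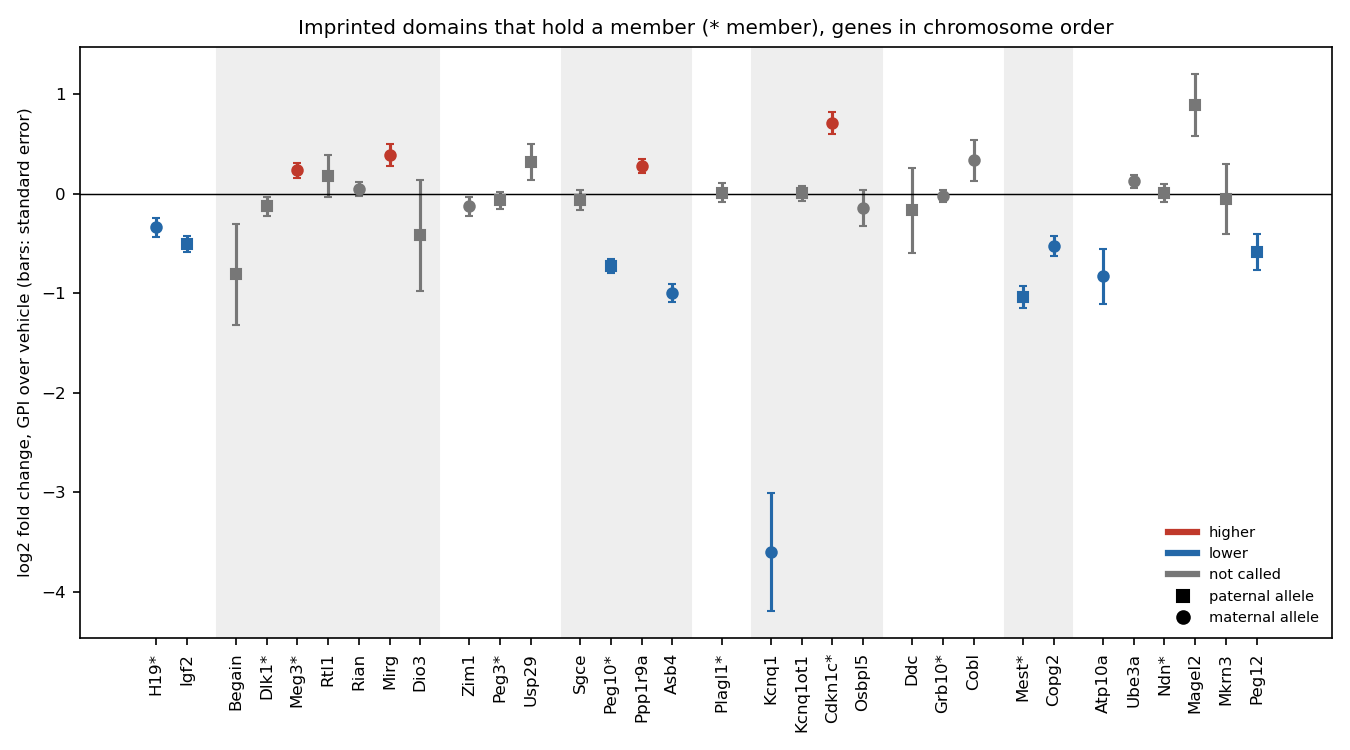
Log2 fold change of GPI over vehicle, with standard errors, for the tested genes of the 9 imprinted domains that hold one of the 10 genes (marked by a star), in chromosome order within each shaded or white domain; squares are genes annotated as paternally and circles as maternally expressed, and colors give the call. Called and uncalled genes stand side by side in 4 of the 9 domains, as for Peg10 and Sgce or Cdkn1c and Kcnq1ot1. The 2 domains with all tested genes called hold only 2 tested genes each (H19 and Igf2, Mest and Copg2). The 3 with none called hold 3 (Peg3), 3 (Grb10) and 1 (Plagl1) tested genes, and 22.9% of all tested genes were called.

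Factors that set or keep imprints were also measured. Of 16 listed, 14 were tested and 3 were called, beside 22.9% of all tested genes. Of the 13 with at least 10 counts in every library, which leaves out Dppa3, 2 were called, and without embryo 2 the test called 5 of the 14. Dnmt3a, a de novo DNA methyltransferase, was higher by 0.34 on the log2 scale (SE 0.08, 5 of 5 embryos). Dppa3, which shields methylation marks in the early embryo and is also a germ cell marker, fell by 5.20 (SE 0.36, from 210 to 496 counts in vehicle to 1 to 21 in GPI libraries), and Arid4a fell by 0.37 (SE 0.08). The maintenance factors Zfp57 (0.10, SE 0.10), Trim28 (-0.21, SE 0.10), Dnmt1 (-0.19, SE 0.07) and Ctcf (-0.02, SE 0.08) were not called. Dnmt1 was called lower without embryo 2 (-0.25, edgeR adjusted p = 0.0179), without the pairing (-0.19, 0.0497) and with total counts alone (-0.24, 0.0227), and Trim28 without embryo 5 (-0.31, 0.0407). Without embryo 2, Trim28 was lower by only -0.11 (edgeR adjusted p = 0.439).

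The 10 genes followed several patterns across the libraries. Among 11104 tested genes that averaged 50 or more counts, the profile nearest to Mest, by the root mean square difference of centered log2 levels over 10 libraries, was that of Heg1 (0.0717), then Chst2 (0.105). Heg1 itself was lower by -0.95 on the log2 scale and Chst2 by -1.08. Plekha1 (0.0889) and Kif26a (0.090) were nearest to Peg10, and Mindy2 (0.0866) and Focad (0.097) to H19. The nearest to Meg3 were Snapc4 (0.0937) and Igdcc4 (0.0946). Cdkn1c had no profile as close, with Mif4gd at 0.175 and Zfp454 at 0.201. Dlk1 was nearest to Gm20199 (0.0887) and Ccnd2 (0.0936), which were likewise higher with GPI in 1 of 5 embryos. Grb10 had the closest match of all 10, Far1 at 0.0378, then Scaf8 at 0.0422. Nearest to Peg3 were Ubxn7 (0.0735) and Nemp1 (0.0799), to Plagl1 Scube1 (0.0962) and Mfsd14a (0.105), and to Ndn Dynlt1f (0.0668) and Paxip1 (0.0922). No member of the 10 was among the 2 nearest profiles of another.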

How the data were processed

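RNA of 10 cultured testes was sequenced in pairs of reads. The authors aligned the reads to mm10 with STAR, assigned them to RefSeq genes with featureCounts in its unstranded mode, and deposited raw counts for 24470 entries (STAR 2.5 and Subread 1.5.0-p1 in the submitters' processing notes). Counts were used as deposited, with 0 other value columns. Samples were grouped by the labelled treatment and paired by the labelled animal.

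The low-count filter was filterByExpr of edgeR (minimum count 10, minimum total 15), which kept 13941 genes and set aside 10529. TMM scaling and edgeR's quasi-likelihood test followed, with embryo and treatment in the design and Benjamini-Hochberg adjustment at an FDR of 0.05. A standard error is the size of the log2 fold change over the square root of F, and changes in single embryos used a prior count of 2. Ratios used counts plus 0.5 and an exact two-sided sign-flip permutation test. Lengths are those of the longest GENCODE M21 transcript of a gene, whereas the counts were made on RefSeq genes. Promoter windows were matched for 7 of the 10 genes (11 windows) and not for H19, Peg10 and Cdkn1c. They were searched for CG, and on both strands for TATAAA and GGGGCCCC. The last was in 1 of the 11, that of Peg3, and in 1.08% of all windows.

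Both gonads of a pair come from the same embryo. Deviations from the treatment mean correlated at 0.06 on average within an embryo (-0.04 to 0.156) and at -0.015 between embryos. No library duplicated another of its group (chi-square per degree of freedom of 6.42 to 27.8). Reads carried no molecular identifiers. The errors of the fit take in both the spread between embryos and the error of counting.

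The rule for named genes took the 10 genes, other listed imprinted genes that were called or share a domain with them, called imprint control factors, the 3 most abundant genes of each cell type list, of which the text prints mainly the first, and the 2 nearest profiles of each gene. Uncalled control factors, Rgs5, Cspg4, Igf2r, Hymai and the miR-335 entry were named after their values were seen, and parental alleles and domains are textbook annotation added at that stage. The members and lists were chosen with earlier results of these data known.

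Alternatives were another test (DESeq2 or limma-voom), a design without the replicate block, other scaling (size factors of DESeq2 or plain totals), other filters (none, or 10 counts in every library), each embryo left out and, for ratios, 1 added to each count. Tables and figures were made in Python 3.11.15 (matplotlib 3.10.9, pandas 2.3.3, numpy 2.4.6) and tests run in R 4.3.3 with DESeq2 1.42.0, limma 3.58.1 and edgeR 4.0.16.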

Additional observations from a re-analysis of the deposited data

Results flagged for a closer look

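In 36 groups of 5 values examined, the distance from an extreme value to its nearest neighbor was compared with the whole range. This share passed the 95% limit for 5 values in 5 groups, where chance gives about 1 in 20, or 1.8 groups. The GPI levels of H19 had a share of 0.77, because the gonad of embryo 1 (42229 normalized counts) lay far above the other 4 (22966 to 27397). The changes of Dlk1 by embryo had 0.795, again with embryo 1 (0.29 on the log2 scale) above the others (-0.29 to -0.17). The changes of Cdkn1c had 0.715, with embryo 5 (1.20) above the others (0.47 to 0.68). The vehicle levels of Mest had 0.767, with embryo 2 (11128 normalized counts) above the others (7555 to 8389). The changes of the Peg10 to Sgce ratio had 0.744, with embryo 2, whose ratio was 18.1 with vehicle and 10.3 with GPI, lowered by more than the other 4.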

How the results depend on the processing

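Mest, Peg10 and Cdkn1c kept their direction and call under all 12 alternatives to the fit, with log2 fold changes of -1.14 to -0.93, -0.78 to -0.68 and 0.59 to 0.76. Without the replicate block, H19 (-0.31, adjusted p = 0.0963) and Meg3 (0.23, 0.121) lost their calls, so that 1 of the 10 genes was called higher, and the unpaired exact permutation test passed the threshold for Dlk1 to Meg3 (-0.37, adjusted p = 0.0238) and for Peg10 to Sgce (-0.67), Cdkn1c to Kcnq1ot1 (0.71) and Ndn to Magel2 (-0.88), each at an adjusted p of 0.0159. The block changed no other call among the 10 genes and 6 ratios. With total counts only, Meg3 was 0.19 (adjusted p = 0.11), 1 gene was called higher, and Plagl1 turned to -0.039 and Ndn to -0.044, as the median over all tested genes moved from 0.019 to -0.032, so these turns say nothing of the 2 genes. Ndn was also -0.0019 with DESeq2, -0.0021 with DESeq2 size factors and -0.00297 with at least 10 counts in every library. With each embryo left out in turn, H19 ran from -0.46 to -0.25, Meg3 from 0.16 to 0.30, Peg3 from -0.16 to 0.00059, Grb10 from -0.056 to 0.0031, Plagl1 from -0.067 to 0.12 and Ndn from -0.038 to 0.0401. Members called higher then numbered 1 to 2, all genes called higher 969 to 1430, other imprinted genes called higher 0 to 3 and lower 6 to 9. Fewer samples enter those fits, and the cause of the other changes was not tested. Genes of low depth had wide errors, as for Kcnq1 (SE 0.59), Dio3 (0.56), Begain (0.51) and Magel2 (0.31).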
